A study of Mus musculus with 6 samples.

Results

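The last exons described here belong to mouse genes that were listed with several last exons in every library of nucleus accumbens RNA. The accumbens is a ventral striatal region that takes part in reward. A last exon is placed by its first base, the splice site at which the final exon of a transcript begins, called its site below. Where the ends of a gene are counted below, its last exons are meant, and different last exons can stop at the same base. A gene was kept when at least 2 such sites on 1 strand were listed, at the same position, in all 6 libraries. The rule found 913 last exons in 420 genes, out of 31035 last exons listed in any library and 9973 listed in all 6, and out of 9480 genes with an end in all 6. Members were thus chosen by the listed positions of their sites in the 6 catalogues, and for that reason their presence in both groups, their number per gene and the distance between their sites are given as descriptions, with no test.

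The morphine mice were C57BL/6N animals that had received morphine, an opioid receptor agonist, in conditioned place preference training, and the saline mice were C57BL/6N animals given saline injections in the same model. Each group had 3 libraries, numbered 4 to 6 for morphine and 1 to 3 for saline. The design text gives 6 mice per group without saying which mouse went into which library, so the p-values below measure the spread between libraries. Age, sex and dose are not stated in the labels used here. Each deposited file is a catalogue of transcript events without usable expression values or read depth, so the values below are exon lengths in bases and numbers of listed events, and an end that is not listed may still have been transcribed. The catalogues held 56416 to 57981 events in morphine and 54641 to 58007 in saline, and 16477 to 16833 last exons in morphine against 16682 to 17153 in saline.

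A gene can end its transcripts at different places. Where the alternative ends lie in different exons, each choice can give the protein its own C-terminus as well as its own 3′ untranslated region. Where they differ by a splice acceptor inside the same exon, a few residues or the reading frame may change. Cleavage and polyadenylation usually follow a hexamer, AAUAAA in the RNA, a short distance upstream of the end. In neurons, the C-terminus chosen in this way can decide which partners a receptor, kinase or motor protein binds.

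Before the individual genes, 1 feature of the catalogues touches all of them. Of the 420 genes, 349 lay on the minus strand of the genome (83.1%) and 71 on the plus strand (16.9%), whereas the genes with 1 constant end were 4427 on the minus and 4633 on the plus strand. Among genes with a constant end, 7.31% of those on the minus strand and 1.51% of those on the plus strand met the rule. The annotation shows no such gap, since several annotated last-exon sites were present for 78.0% of these minus-strand genes and 78.6% of these plus-strand genes. In every library, from 17.3% to 20.0% of minus-strand genes but only 5.34% to 5.77% of plus-strand genes were listed with at least 2 last exons. First exons leaned the other way: 778 minus-strand and 1022 plus-strand genes had at least 2 constant first exons. The cause of the asymmetry was not tested, so the absence of a plus-strand gene from the members says little about its ends. Some values below are given for both strands. The others pool the strands and so come mostly from minus-strand genes.

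**Figure D1:**
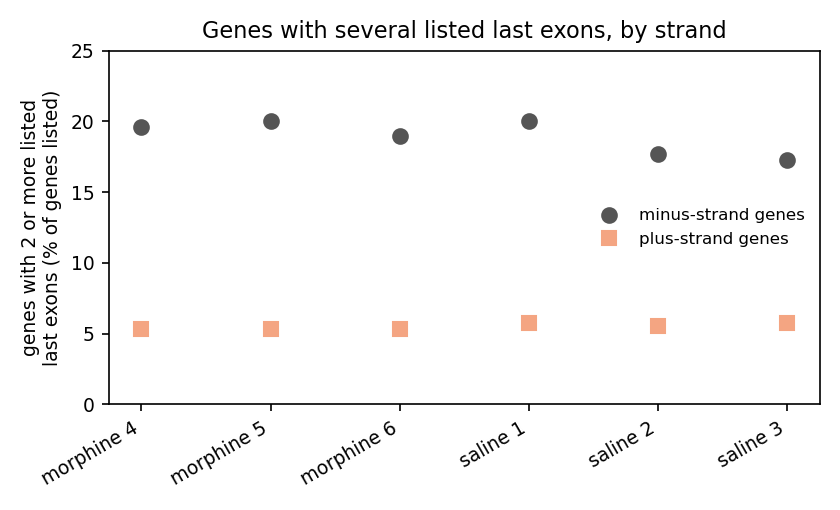
Share of listed genes with at least 2 last exons (vertical axis, %) in each morphine and saline library (horizontal axis), for minus-strand genes (circles) and plus-strand genes (squares). The minus-strand share lies between 17.3% and 20.0% and the plus-strand share between 5.34% and 5.77% in all 6 libraries.

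The closest pairs of sites showed the smallest change that an end can make, and their sequences are printed first because they carry it. Mapk8 and Mapk9 encode the stress-activated kinases JNK1 and JNK2, each known in a short and a long form. In Mapk8 (minus strand, sites 33382324 and 33382319 of chromosome 14) and in Mapk9 (plus strand, sites 49883142 and 49883147 of chromosome 11) the constant sites lay 5 bases apart. Each line below gives the last 12 bases of the exon before, the bases gained at the upstream site in capitals, and the 12 bases that follow, from GENCODE transcripts of GRCm38. The printed last-exon bases span chr14:33382308-33382324 and chr14:33382308-33382319 for Mapk8 and chr11:49883142-49883158 and chr11:49883147-49883158 for Mapk9.
Mapk8 upstream site: cgtctcctttagCACAGgtgcagcaatga
Mapk8 downstream site: cgtctcctttaggtgcagcaatga
Mapk9 upstream site: accagccttcagCACAGatgcagcagtaa
Mapk9 downstream site: accagccttcagatgcagcagtaa
The gained bases were the same in the 2 genes. With them, the last 3 printed bases are the annotated stop codon, and the longest annotated protein had 384 residues in Mapk8 and 381 in Mapk9. Without them, the frame ran past that triplet, and the longest annotated protein had 427 residues in Mapk8 and 423 in Mapk9. In both genes the shorter-protein and the longer-protein ends were listed in all 3 morphine and all 3 saline libraries. The last exon was 4427 bases long at the upstream and 215 bases at the downstream site of Mapk8, and 3280 and 3275 bases long at those of Mapk9, with the same value in every library. Mapk10, which encodes the third JNK, was just outside the rule, with at least 2 last exons in at least 5 libraries but not in 6.

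In other close pairs the sites lay exactly 3 bases apart, as at tandem acceptors, where the spliceosome can use either of 2 neighbouring AG dinucleotides. Among the 493 pairs of neighbouring sites, 34 lay within 30 bases of each other, 18 of them at a distance of 3, and 22 had a distance that was a multiple of 3. Gnb1 encodes the beta subunit of heterotrimeric G proteins, and Ptbp2 a splicing repressor of neurons. Their sites are shown in the same layout, with last-exon bases from chr4:155557468-155557482 and chr4:155557471-155557482 for Gnb1 (plus strand) and from chr3:119720446-119720460 and chr3:119720446-119720457 for Ptbp2 (minus strand).
Gnb1 upstream site: taaagccaggagCAGcaggtggatgga
Gnb1 downstream site: taaagccaggagcaggtggatgga
Ptbp2 upstream site: taagttttttcaAAGagatcacaaaat
Ptbp2 downstream site: taagttttttcaagatcacaaaat
In Gnb1 the annotated stop codon lies before the last exon, so both ends leave a protein of 340 residues. In Ptbp2 the triplet lies in the coding region, with 532 residues at the upstream and 531 at the downstream site. The last exons measured 1802 and 1799 bases in Gnb1 and 1719 and 1716 bases in Ptbp2, again the same in all 6 libraries. Of the 29 pairs within 30 bases that differ by an annotated acceptor, all 29 had gained bases that end in AG, as an acceptor requires. That count follows from the choice of annotated acceptors and is a description only. The 4 other genes named for the smallest spread were Ralgapa1, which encodes a GTPase-activating protein for Ral, with sites 1 base apart of which only 1 is annotated, and Armh4, Ctbp1 and D030056L22Rik with sites 3 bases apart. Ctbp1 encodes a transcriptional corepressor.

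Over all 420 genes the distance between the outermost sites had a median of 2712 bases and ran from 1 to 495917 bases. In 22 genes it was at most 5 bases, in 20 it was larger but below 100, in 73 from 100 to below 1000, in 188 from 1000 to below 10000, in 102 from 10000 to below 100000 and in 15 at least 100000. The middle 80% of genes lay between 118 and 33630 bases. The median was 2650 bases on the minus and 3555 on the plus strand. Most genes, 358, had 2 constant sites, 54 had 3, 6 had 4, 1 had 5 and 1 had 6.

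**Figure D2:**
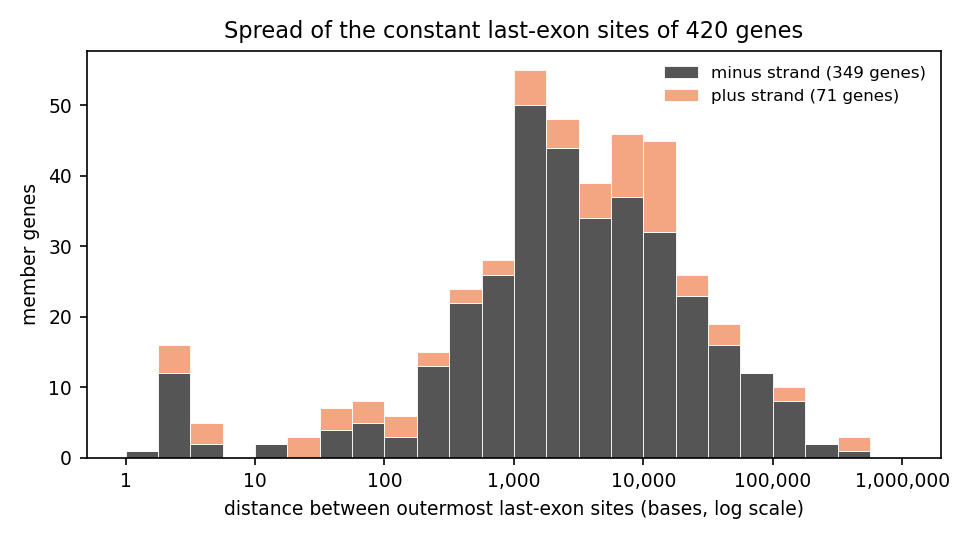
Number of member genes (vertical axis) by the distance between their outermost constant last-exon sites (horizontal axis, bases, log scale), stacked by strand. A small group at 1 to 5 bases holds 22 genes, and the main body is centred near the median of 2712 bases.

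The widest spread belonged to Exoc4, a subunit of the exocyst that tethers secretory vesicles, with 3 sites over 495917 bases and last exons of 1153, 928 and 2066 bases in every library. The longest annotated protein at these ends had 522, 506 and 975 residues. Pcdh7, a protocadherin of neuronal cell adhesion, had sites 400861 bases apart and last exons of 1352 and 480 bases in every library, with proteins of 1069 and 1255 residues. The next were Samd5 (362690 bases), Cmss1 (259480), Wdr70 (219862), Cpne8 (154538), Vps53 (130800), Pid1 (120871), Stxbp4 (119566) and Cox16 (115305). In Cpne8, Vps53 and Pid1 the upstream end gave annotated proteins of 104, 36 and 97 residues, against 577, 832 and 217 at the downstream end, and every last exon had the same length in the 6 libraries. Samd5, Cmss1, Wdr70 and Cox16 each had an end whose length differed between libraries. The far site of Samd5 is not annotated, and the listed last exon there measured 43937, 293 and 5926 bases in morphine and 50429, 43905 and 28114 bases in saline, so its end was not fixed in either group. The upstream last exon of Cmss1 measured 1155, 863 and 1244 bases in morphine and 662, 574 and 874 in saline, and that of Wdr70 3983, 1149 and 4113 bases in morphine and 1151, 6978 and 1148 in saline. The far last exon of Cox16 measured 177, 319 and 319 bases in morphine and 319, 177 and 319 in saline. In all 4 genes the groups overlapped.

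Neighbouring sites related to each other in 3 ways. In 322 of the 493 pairs (65.3%) the last exons were separate exons, at a median distance of 6960 bases. In 86 pairs (17.4%) the upstream last exon ran on over an intron that precedes the downstream one, at a median distance of 726 bases. In 73 pairs (14.8%) the sites were different acceptors of the same exon, at a median of 50 bases, and 12 pairs (2.43%) could not be assigned. By median listed end, both last exons stopped at the same base in 34 of the 86, 24 of the 73 and 8 of the 12 pairs. Among the separate pairs this was so in 0. On the minus strand the 3 classes held 271, 83 and 45 pairs and on the plus strand 51, 3 and 28, so the pairs with an intron inside were nearly all on the minus strand.

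The choice of end usually went with a different protein end. In 308 pairs (62.5%) both sites belong to annotated coding transcripts with different stop codons, in 72 (14.6%) they share a stop codon, and in 113 (22.9%) at least 1 site has no coding transcript. At least 1 pair with different stop codons was present in 277 of the 420 genes (66.0%). Where both outermost ends have a complete annotated coding transcript, in 278 genes, the downstream end gave the longer protein in 202, the upstream end in 52, and the lengths were equal in 24. In 61 of the 278 the upstream protein was less than 50% as long as the downstream one, and the median ratio was 0.886. At 679 of 731 sites with such a transcript the stop codon lies inside the last exon.

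Several genes known for exactly this choice were among the members; except where said, they were picked after membership was seen. Kif1b, a kinesin that carries mitochondria and synaptic vesicle precursors and was named from the cytoskeletal list, is known in a short and a long form with different cargo-binding tails. Its sites, 149238483 and 149180810 on the minus strand of chromosome 4, lie 57673 bases apart, the last exons measured 4750 and 4492 bases in all 6 libraries, and the annotated proteins have 1150 and 1816 residues. The last 30 bases of each end are shown with AATAAA and its variant ATTAAA in capitals, because each end has its own (chr4:149233734-149233763 and chr4:149176319-149176348, minus strand).
Kif1b upstream end: tATTAAAgaAATAAAatcttcctgaaataa
Kif1b downstream end: aaatAATAAAggtacaaccagtgcatcaca
Flt1 encodes a receptor for vascular endothelial growth factor, and its short form is the known soluble decoy that lacks the membrane anchor and kinase domain. Its sites lay 75127 bases apart, with last exons of 4375 and 2803 bases and annotated proteins of 688 and 1333 residues. Here the ends (chr5:147635159-147635188 and chr5:147561604-147561633, minus strand) differ: in the 30 bases AATAAA, again in capitals, stands in the downstream end and not in the upstream one.
Flt1 upstream end: tgtgctattatatagcgcaaaacctacaaa
Flt1 downstream end: tcatttAATAAAattaactttcaaaaccaa

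Lamp2 encodes a membrane protein of lysosomes whose 3 known isoforms differ only in the final exon, which holds the transmembrane and cytosolic part. All 3 last exons were listed in all 6 libraries, with lengths of 2345, 510 and 925 bases and annotated proteins of 415, 415 and 416 residues. Their first 24 bases are shown since they are the start of what distinguishes the isoforms (chrX:38421828-38421851, chrX:38405548-38405571 and chrX:38402258-38402281, minus strand, in transcription order).
Lamp2 site 1: cccaggagtgttcgctggatgatg
Lamp2 site 2: ctcaagactgcagtgcagatgaag
Lamp2 site 3: ctgaggaatgtgctgctgactctg
Grin1, the obligatory subunit of NMDA receptors, had 2 acceptors 356 bases apart in its last exon, on the minus strand of chromosome 2. The last exons ended at the same base and measured 1304 and 948 bases in every library, with annotated proteins of 959 and 943 residues that end differently. The first 24 bases at the upstream (chr2:25292461-25292484) and the downstream site (chr2:25292105-25292128) show the change.
Grin1 upstream site: agcaccgggggtggacgcggcgct
Grin1 downstream site: cagtaccatcccactgatatcacg

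**Figure D3:**
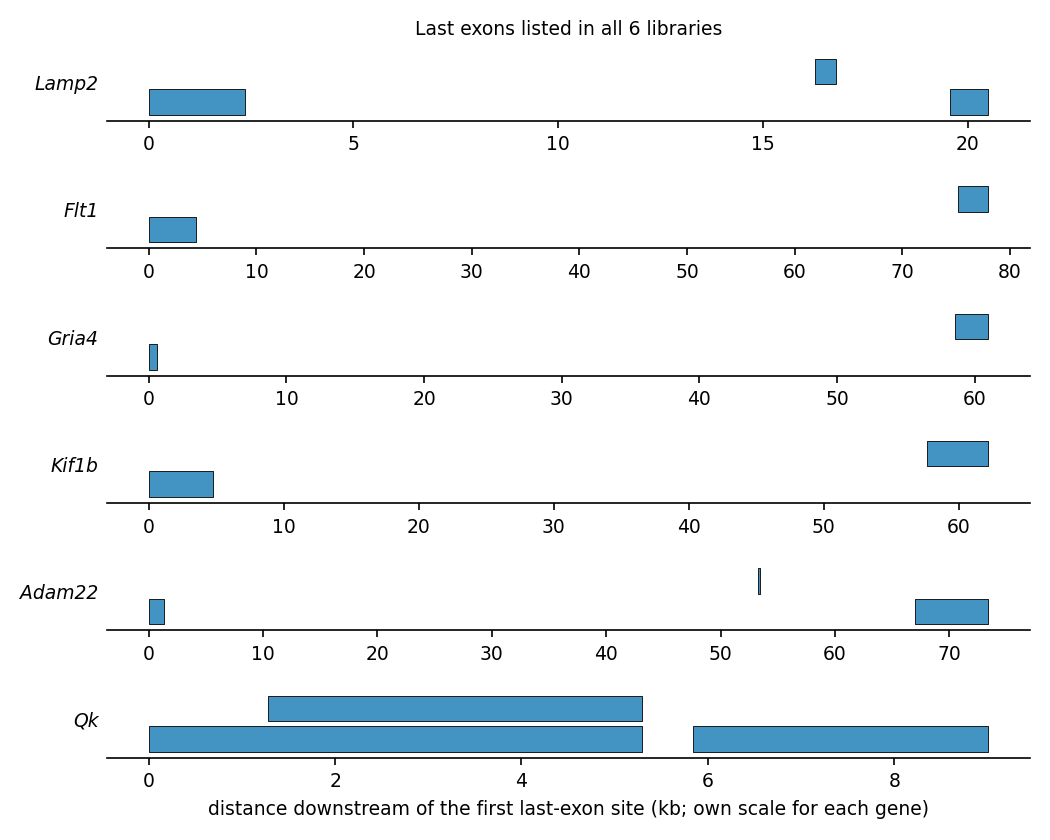
Last exons listed in all 6 libraries for 6 genes, drawn to scale along the direction of transcription (horizontal axis, kb downstream of the first site, with its own scale for each gene). Boxes are median listed lengths, all at sites of annotated coding transcripts, and alternate boxes are raised so that overlaps are visible; Lamp2 shows 3 separate boxes, and the first 2 of Qk overlap.

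Among the genes with most constant ends, Nisch, which encodes the integrin-binding protein nischarin, had 5 ends, of 1544, 1198, 466, 585 and 1249 bases in every library. Ern1, the endoplasmic reticulum stress sensor IRE1, had 4 ends whose annotated proteins lengthened along the gene, with 66, 118, 408 and 977 residues. The other genes with 4 ends were Stxbp4, which encodes a syntaxin-binding protein, Rnpc3, a component of the minor spliceosome, Ppil2, a peptidyl-prolyl isomerase-like protein, Brsk2, a kinase of neuronal polarity, and Pja1, a ubiquitin ligase. Of the 24 last exons in those 6 genes, counting Ern1, only the most downstream of Rnpc3 changed length between libraries, with 221, 221 and 902 bases in morphine and 221, 221 and 220 in saline.

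Over all genes with a constant end, 4.43% were members, and the gene lists drawn up for this tissue are set beside that share without a test. Of 66 genes known for alternative last exons, 37 had a constant end and 2 of these (5.41%) were members, among them Klc1, a kinesin light chain with last exons of 559 bases in every library and of 413 bases except in saline 2, where the length was 461. Of 31 ion channel and receptor genes with a constant end, 4 (12.9%) were members. Beside Grin1 these included Gria4, an AMPA receptor subunit with ends of 590 and 2418 bases in every library and proteins of 433 and 902 residues. Of 27 synaptic scaffold and signalling genes with a constant end, 2 (7.41%) were members: Kalrn, a guanine nucleotide exchange factor of dendritic spines, with 427 and 1411 bases in every library, and Camk2d, a calmodulin-dependent kinase. Camk2d had a first end of 64 bases in every library and a second of 4, 2156 and 1037 bases in morphine and 1037, 1037 and 4 bases in saline, so both groups held the 4-base and the 1037-base listing. Of 36 cytoskeletal and adhesion genes with a constant end, 3 (8.33%) were members, Cadm1, Kif1b and Klc1, and Cadm1, a synaptic adhesion molecule, had ends of 316 and 379 bases in every library.

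Genes of the machinery that selects ends were counted in the same way, beside the 4.43% of all genes with a constant end and without a test. Of 24 cleavage and polyadenylation genes with a constant end, 2 (8.33%) were members. Cpsf6, a subunit of cleavage factor I, had last exons of 327 and 426 bases, and Papolg, a poly(A) polymerase, of 1224 and 1411 bases, the same in all 6 libraries. Of 27 RNA-binding proteins known to regulate ends or their splicing, also with a constant end, 4 (14.8%) were members: Ptbp2, Ewsr1, Qk and Tardbp. Ewsr1, the EWS RNA-binding protein, had ends of 1019 and 207 bases in every library, with proteins of 113 and 661 residues. Qk, which encodes the RNA-binding protein quaking of myelinating glia, had 3 ends with proteins of 325, 319 and 341 residues, and its middle last exon was 4016 bases long except in morphine 5, where it was 1658. Tardbp encodes TDP-43, which is known to regulate its own 3′ end; its last exons measured 6410 and 4463 bases except in saline 3, where they measured 2066 and 119. Pcf11 and Cpeb1, which act in 3′ end formation and in cytoplasmic polyadenylation, were just outside the rule.

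Markers of cell types told little about which cells the ends came from. All 18 striatal neuron markers were listed in all 6 libraries and 9 had a constant end, but 0 were members. Cell-type lists had 1 member each for oligodendrocytes (Mobp), astrocytes (Gfap) and endothelium (Flt1), and 0 for cortical neurons, microglia and the ependyma. In bulk tissue, fewer cells of a type and less RNA per cell cannot be told apart. Gfap, the intermediate filament protein of astrocytes, had last exons of 1355 and 1386 bases in every library and annotated proteins of 428 and 430 residues. Mobp, a protein of central myelin, had fixed ends of 1156 and 2941 bases and a far end of 7040, 3624 and 1907 bases in morphine and 1905, 6669 and 3706 bases in saline, so that the groups overlapped there.

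Some further members, picked after their values were seen, had the same lengths in every library, as did 85.5% of all member last exons. They include Syn1, a synaptic vesicle protein, with 1095 and 1061 bases and proteins of 706 and 670 residues. Psip1, a chromatin-binding coactivator, had 683, 603 and 1400 bases, and the downstream end gave 528 residues against 327 and 331. Tmpo, a lamina-associated protein, had 2945 and 2188 bases and was a case where the upstream end gives the longer protein, with 693 residues against 452. Fbln1, an extracellular matrix protein, had 441 and 1496 bases and 685 and 705 residues. Rasgrf1, a calcium-dependent exchange factor for Ras, had 4400, 343 and 307 bases and 153, 178 and 1262 residues. Adam22, a synaptic receptor for LGI proteins, had 1372, 147 and 6355 bases and 333, 857 and 927 residues.

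The members were annotated in nearly all cases. Of the 913 sites, 878 (96.2%) are sites of annotated last exons, 17 (1.86%) begin annotated internal exons and 18 (1.97%) are not annotated, against 99.0%, 0.0993% and 0.861% of the 9060 sites of genes with 1 constant end. The transcript class was protein-coding for 841 sites (92.1%) and retained intron for 21, of which 15 were the most upstream and 2 the most downstream end of their gene. In 7 genes, 9 of the events share a site with another gene ID (Cox16 with Gm20498, for example), so their assignment is uncertain. In genes with an annotation match, 4 events were listed on the strand opposite to the gene. Sites outside an annotated gene numbered 15, which includes the sites of 2 gene IDs without an annotation match. These counts can overlap. Member genes had a median of 6 annotated transcripts against 5 in genes with 1 constant end, 4 against 3 annotated last-exon sites, and a median length of 29965 against 24177 bases. Only 7 of the 420 (1.67%) had at least 2 constant first exons, against 1175 (13.0%) of the genes with 1 constant end, and the part of the strand asymmetry in that gap was not tested.

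The outer end of each last exon was not used by the rule. In 690 of 913 members (75.6%) it was exactly an annotated transcript end in all 6 libraries, against 58.5% of the genes with 1 constant end. Median length was 1002 bases in members and 1205 in the others, and within members 841 bases at the most upstream and 1180 at the most downstream ends. By library the members' median was 1012, 986 and 1003 bases in morphine and 995, 993 and 993 in saline, a range that overlaps between the groups.

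The sequence at those 690 annotated ends differed by position in the gene. The hexamer AATAAA, searched on the transcript strand in the last 50 bases, was present in 148 of 327 most upstream ends (45.3%) and 194 of 304 most downstream ends (63.8%), against 65.0% of the 5302 ends of genes with 1 constant end and 63.6% of all 5992 such ends. The variant ATTAAA, which an end may hold beside the first, was found in 14.1%, 20.1% and 18.4% in the same order. The reverse complement TTTATT was found in 7.03%, 6.91% and 7.70%, close to each other. By strand the gap was 42.3% against 64.7% in the 272 most upstream and 258 most downstream minus-strand ends and 60.0% against 58.7% in the 55 and 46 plus-strand ends. The lower share at upstream ends was therefore seen in minus-strand genes and not in the few plus-strand ones. A match is a run of letters and no evidence of cleavage there.

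**Figure D4:**
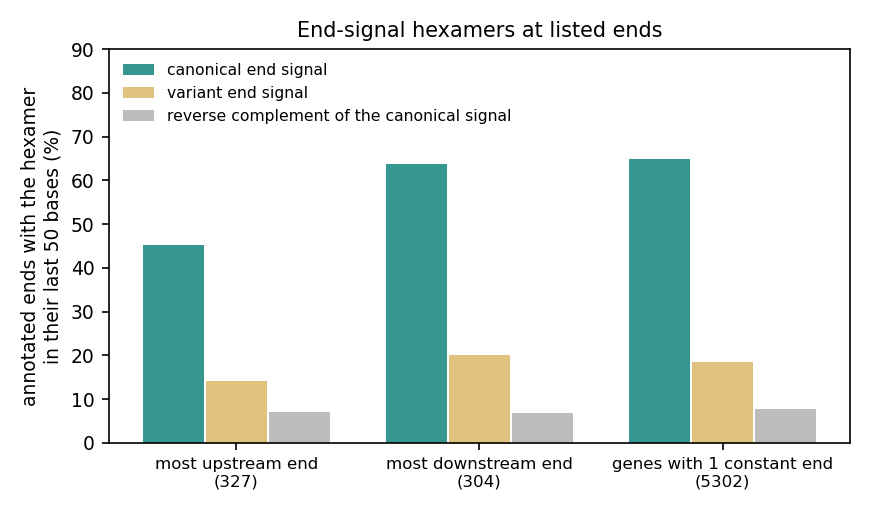
Share of annotated ends that hold a hexamer in their last 50 bases (vertical axis, %), for the most upstream and most downstream ends of member genes and for genes with 1 constant end (horizontal axis, number of ends in brackets). Bars are the canonical hexamer, its variant and the reverse complement of the canonical one. The canonical share is 45.3% at upstream ends and 63.8% and 65.0% in the other groups. Strands are pooled, and the lower share at upstream ends was seen in minus-strand genes only.

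The comparison of morphine with saline asks whether conditioning with the opioid went with different ends. For the ends in every library, the measure left free is where the last exon stops. Of 913 members, 781 (85.5%) had the same length in all 6 libraries, against 76.0% of the genes with 1 constant end. The other 132, in 114 genes, could be tested, and in 63 of them a single library was the only one to differ: 17 times morphine 4, 10 times morphine 5, 8 times morphine 6, 12 times saline 1, 6 times saline 2 and 10 times saline 3. These are not all separate shifts: where last exons of a gene stop at the same base, as in Tardbp, a shift of that base is counted at each site. The length range was over 100 bases in 79 of the 132 and 1 to 10 bases in 33. More of the most downstream ends varied (75 of 420, 17.9%) than of the most upstream ends (51 of 420, 12.1%).

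Of those 132, limma called 1 at an adjusted p under 0.05, and in 5 (3.79%) the morphine and saline lengths did not overlap. Over all 2304 last exons tested, 0.477% were called and 3.04% did not overlap, 1.48% longer and 1.56% shorter in morphine, so the members' share of 3.79% (2 longer, 3 shorter) is near the background. The median log2 difference was 0 in members and in all ends tested. With 3 libraries against 3, the exact two-sided permutation test cannot give a p below 0.1, which each of these 5 reached.

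The called end was in Lactb2, which encodes a mitochondrial endoribonuclease. At site 13627437 on the minus strand of chromosome 1 the last exon measured 10940, 10785 and 10934 bases in morphine, against 4108 bases in each saline library. Every morphine library was longer, by 1.41 on the log2 scale (SE 0.01, limma adjusted p = 1.99e-07). The saline lengths were identical and the morphine lengths had an SD of 87.8 bases, so this p-value rests on a lack of spread. The exact permutation p was 0.1. In saline the exon stopped at 13623330, the annotated end of the gene, and in morphine at 13616498, 13616653 and 13616504, past it, in a stretch with no other annotated gene. The site itself begins an annotated internal exon, and the exon runs over the intron before the annotated last exon. That second end of Lactb2, at site 13626904, was 3575 bases long in all 6 libraries. Which of the reads behind the longer exon belong to Lactb2 cannot be read from the catalogue.

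The other 4 ends did not pass the adjusted test. Sorcs1 encodes a sortilin-family receptor that sorts neuronal membrane proteins. Its downstream last exon, at site 50144147 on the minus strand of chromosome 19, measured 996, 1233 and 846 bases in morphine, against 1777, 1740 and 1526 bases in saline (log2 difference -0.73, SE 0.16, limma adjusted p = 0.757). All 3 morphine values lay below all 3 saline values. Its upstream last exon, 7204 bases before, measured 354, 354 and 5330 bases in morphine and 6076, 8944 and 3516 bases in saline, so there the groups overlapped through morphine 6. The ends give annotated proteins of 1168 and 1192 residues. At the downstream site the annotated ends are 50143299 and 50143301. Morphine 4 and 5 and all 3 saline libraries stopped past them, at 50142371 to 50143152, and morphine 6 stopped at 50143302.

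Xpa encodes a damage-recognition factor of nucleotide excision repair. Its downstream last exon, at site 46175415 of chromosome 4, measured 194, 194 and 2959 bases in morphine, against 3010, 3014 and 3011 in saline (log2 difference -2.65, SE 1.24, limma adjusted p = 0.757). Morphine 4 and 5 stopped at the annotated end, at 46175222, while morphine 6 stopped at 46172457 and the saline libraries at 46172402 to 46172406, so the difference rests on morphine 4 and 5. Without morphine 6 the log2 difference was -3.96 and the limma adjusted p was 2.25e-07, with the lengths nearly identical within each group. The stretch beyond the annotated end overlaps Ncbp1, a protein-coding gene on the other strand, and the part of its reads in this exon was not tested.

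Rprd2 encodes a regulator of RNA polymerase II. At site 95776797 of chromosome 3, which begins an internal exon, its last exon measured 394, 433 and 623 bases in morphine, against 990, 694 and 999 in saline (log2 difference -0.90, SE 0.25, limma adjusted p = 0.757). Cep57l1, a relative of a centrosomal protein, had 1068 bases in each morphine library, against 1062 in each saline library (log2 difference 0.01, limma adjusted p = 0.757). That difference is 6 bases, between annotated ends at 41718840 and 41718846 of chromosome 10. All 5 of these ends are on the minus strand, as are 107 of the 132 tested.

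**Figure D5:**
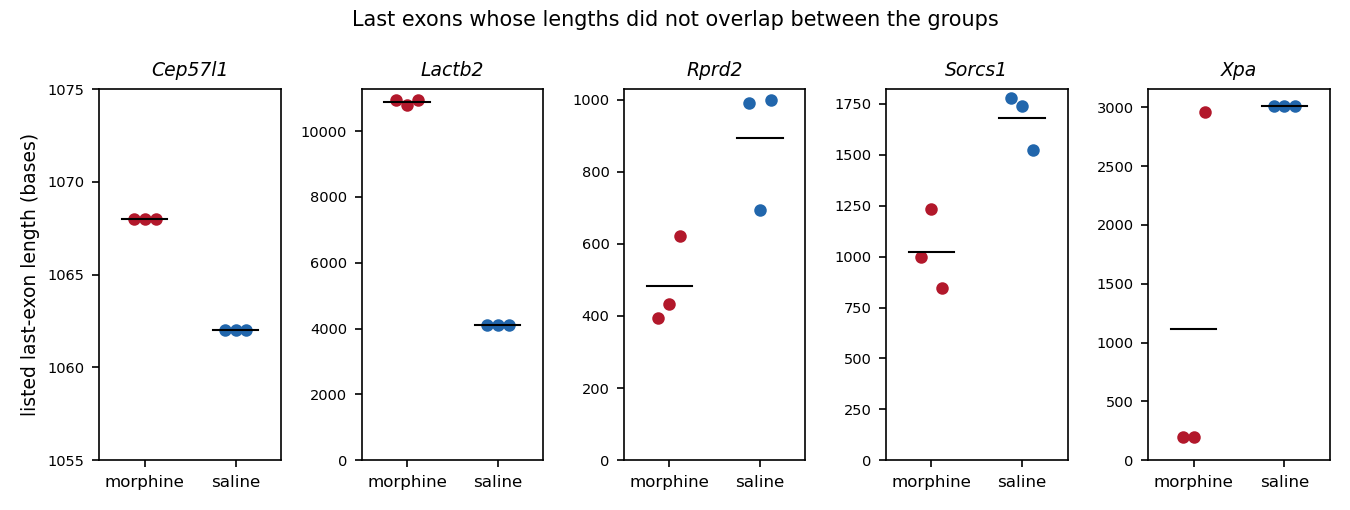
Listed last-exon length in bases (vertical axis; the Cep57l1 axis does not start at 0) for the 5 member ends whose groups did not overlap, with morphine on the left and saline on the right of each panel; points are libraries and the line is the mean of 3. Lactb2 separates 10785 to 10940 bases in morphine from 4108 in saline, while Xpa has 1 morphine library at 2959 bases, near the saline values.

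Member genes also had last exons that were listed in some libraries only. Such further ends totalled 144, 157 and 121 in the morphine libraries and 141, 114 and 129 in the saline libraries, which is 141 ± 18.2 against 128 ± 13.5 (SD, n = 3 each), a difference within the spread of the libraries. They were found in 208 of the 420 genes (49.5%), against 23.2% of the genes with 1 constant end, a comparison in which the rule has already selected genes with many ends. Of 122 member genes that could be tested, limma called 2, and 6 (4.92%) did not overlap, 4 with more and 2 with fewer in morphine. Over the 6054 genes tested, 1.11% were called and 1.82% did not overlap (0.875% with more and 0.942% with fewer in morphine), and 66 of the 67 called genes had identical counts within both groups.

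The called genes were Dzip3 and Cox16. Dzip3, which encodes a ubiquitin ligase, had 1 further last exon in each morphine library, against 0 in each saline library (limma adjusted p = 7.82e-05), but it was not the same one: morphine 4 and 6 listed site 48927643 of chromosome 16, with 3412 bases, and morphine 5 listed site 48957705, with 2460 bases. Cox16, an assembly factor of cytochrome oxidase, had 0 in morphine, against 1 in each saline library (limma adjusted p = 7.82e-05). It was the same in all 3, an annotated last exon of 79 bases at site 81472171 of chromosome 12. Cox16 shares 2 of its constant sites with the gene ID Gm20498. Both genes met the minimum mean of 0.5 only through the group that listed the exon, so neither call stands as support for a difference. Both calls rest on counts that are identical within each group, and with limma's robust variance both had an adjusted p of 0.931.

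The other 4 did not pass the adjusted test. Of these, Smg1, Erlec1 and Mrpl39 met the minimum mean through their morphine counts alone. Smg1, a kinase of nonsense-mediated decay, had 1, 4 and 2 further last exons in morphine, against 0 in each saline library (limma adjusted p = 0.295). One of its sites, 118200758 of chromosome 7, was shared by morphine 5 and 6, and the rest were listed in 1 library each. Erlec1, a lectin of the endoplasmic reticulum, and Mrpl39, a mitochondrial ribosomal protein, each had 1, 2 and 1 in morphine, against 0 in each saline library (limma adjusted p = 0.0725 for each). The 4 Mrpl39 sites were each listed in 1 library. Chpt1, a phosphotransferase of phosphatidylcholine synthesis, had 0, 1 and 1 in morphine, against 2 in each saline library (limma adjusted p = 0.971), among them a 221-base last exon at site 88487262 of chromosome 10 that all 3 saline libraries listed and no morphine library did. Without morphine 4 its log2 difference was -0.74 with an adjusted p of 4.86e-06, since the counts then were identical within each group. With a pseudocount of 0.1, Erlec1 and Mrpl39 had an adjusted p of 0.0109.

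Events other than last exons, which the rule did not use either, totalled 1217, 1225 and 1168 in member genes in morphine and 1248, 1152 and 1106 in saline. The groups overlapped. Limma called 0 of the 420 member genes, with 11 at an unadjusted p under 0.05, and in 11 (2.62%) the groups did not overlap, 8 with more and 3 with fewer events in morphine. Over 14532 genes, 0.64% were called, 3.1% had an unadjusted p under 0.05 and 3.04% did not overlap (1.58% with more and 1.46% with fewer), so the members' share is again near the background. Intron retention events in member genes numbered 246, 240 and 213 in morphine and 235, 190 and 150 in saline, where saline 1 exceeded morphine 6. The same totals for other genes are not given here and depth is unknown, so these numbers do not set members apart.

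Among the 8 genes with more events in every morphine library, Mapk9, whose JNK2 ends are printed above, had 2, 3 and 3 events in morphine, against 1 in each saline library (log2 difference 1.06, SE 0.15, limma adjusted p = 0.205). Retention events numbered 1, 2 and 1 in morphine and 0 in each saline library, exon skipping events 0, 0 and 1 in morphine and 0 in saline, and 1 first exon was listed in every library. Irak1, a kinase of interleukin-1 receptor signalling, had 9, 11 and 7 against 4, 3 and 5, but by event class only the total separated: exon skipping numbered 4, 4 and 0 in morphine and 0 in saline, and retention 1, 2 and 5 in morphine and 0, 0 and 1 in saline. Metap2, a methionine aminopeptidase, had 6, 2 and 4 events in morphine, against 1 in each saline library. Erlec1 had 3, 4 and 2 against 1 in each, and Dzip3 had 3, 5 and 6 against 2 in each, and in both genes retention was present in every morphine library and in 0 saline libraries. Without morphine 4, Mapk9 had a limma adjusted p of 5.6e-07 and Dzip3 of 0.0238. In both genes morphine 4 had the lowest count of the morphine libraries. The Mapk9 counts were then identical within each group, so its p-value rests on a lack of spread.

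Fewer events in every morphine library were found for 3 genes. Smarcd2, a subunit of SWI/SNF chromatin remodellers, had 2, 1 and 1 in morphine, against 3, 6 and 6 in saline (log2 difference -1.57, SE 0.37, limma adjusted p = 0.782). Meaf6, a subunit of histone acetyltransferase complexes, had 3, 3 and 2 against 5, 6 and 6 (log2 difference -0.97, SE 0.18, limma adjusted p = 0.364), and there the deficit was exon skipping, with 2, 2 and 1 in morphine against 4, 5 and 5 in saline. Slc38a10, an amino acid transporter, had 3, 2 and 3 against 4, 6 and 5.

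The border of the rule was soft. At the threshold of 6 libraries there were 420 genes, and 259 others had at least 2 last exons in at least 5 libraries. In those, 340 sites were listed in exactly 5 libraries, and the missing library was morphine 4, 5 or 6 for 58, 61 and 47 sites and saline 1, 2 or 3 for 71, 51 and 52 sites. Each of the 6 libraries was thus the missing one for some. Among the 259, chosen after membership was seen, were Homer1, a postsynaptic scaffold whose short form is known as an activity-induced one, Grm7, a presynaptic metabotropic glutamate receptor, Ncam1, a neural adhesion molecule, Trim9, a neuronal ubiquitin ligase, and Stxbp5l, a regulator of vesicle release.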

How the data were processed

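The deposited file of each library lists transcript events by type and Ensembl gene ID, with their coordinates, strand and splice pattern. The assembler, event caller, build and depth were not given in the sources used here. In the deposited files, the column headed fpkm holds only whole numbers at or below 0, so it was treated as a score, not as FPKM, and not used. Start and end are positions, and lengths are end minus start plus 1. Coordinates were read on GRCm38, whose GENCODE M21 exons match nearly all sites described. The genome sequence was not used here; sequences come from GENCODE transcripts.

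A last exon was the same in different libraries when gene ID, chromosome, strand and site were the same. The members and the gene lists were chosen with earlier results of these data known. Limma 3.58.1 (R 4.3.3; mean-variance trend, Benjamini-Hochberg adjustment, threshold 0.05) was fitted over all last exons in 6 libraries with more than 1 length (log2 length), and over all genes with a mean of at least 0.5 for further last exons and for other events per gene (log2 of the count plus 0.5). Events with codes ending in OFF repeat a partner event and were not counted. Tested on simulated data, the fit recovered most large changes of length but few changes of event counts, so a count that is not called says little. An exact permutation test over libraries and non-overlap of the groups were given beside each. No labels pair libraries or name batches. Because no depth is given, no counting interval was computed. Tables were handled in Python 3.11.15 with pandas 2.3.3.

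Named genes were the members of 4 lists (known alternative last exons, cleavage and polyadenylation, RNA-binding regulators, striatal markers), the 10 genes with most constant ends, the 10 with the largest and 5 with the smallest spread, and non-overlapping genes: up to 10 per direction by log2 length ratio, and up to 5 per direction for each event count. Up to 4 members were named from each other list. Any other gene was chosen after its values were seen, and some genes that the rule names are not reported here. Protein lengths are those of the longest complete annotated coding transcript that ends at the site. Alternatives left out each library, changed the variance model, the pseudocount (0.1, 1), the minimum (none, 1), the lengths included or the scaling, and changed the rule of membership.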

Additional observations from a re-analysis of the deposited data

How the results depend on the processing

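No paired analysis was possible because the groups share no replicate number in the labels. Of 263 values for single genes under the alternatives, 0 reversed and 252 kept their side of the threshold. These genes were picked because their groups did not overlap, so a reversal was hardly possible. A gene that a changed filter removed gave no value and was not counted. Brd8 and Slco5a1 passed for other events without morphine 6 (limma adjusted p of 0.0468 and 5.08e-07). In Slco5a1 the counts were then identical within each group, so that p-value rests on a lack of spread. Leaving out a library shrinks a group to 2 libraries, so that non-overlap is easier to reach. Without each library in turn, called last exons numbered 26 to 40 over the whole table (11 with all libraries), called members 1 to 2 (1) and non-overlapping members 8 to 11 (5). For further last exons the same counts were 80 to 128 (67), 1 to 4 (2) and 6 to 14 (6), and for other events 151 to 222 (93), 1 to 5 (0) and 17 to 28 (11). The rule found 453 to 469 genes with 1 library less, 378 with a spread of at least 100 bases and 400 with annotated sites alone.

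With constant lengths included, 19 ends were called over the whole table and 2 among members, since Cep57l1 then passed. With the robust fit, 6 genes were called for further last exons, 0 of them members, and 0 for other events; Dzip3 and Cox16 then had a limma adjusted p of 0.931. With a pseudocount of 0.1, 4 members were called for further last exons, Erlec1 and Mrpl39 added. With a minimum mean of 1, called genes fell to 8 for further last exons (0 members, 2 non-overlapping) and 51 for other events. In alternatives chosen after seeing the data, 3 of the 5 non-overlapping ends were left with sites of annotated last exons alone, and 0 of 25 plus-strand ends did not overlap. The shortest-listing alternative changed nothing, since no library listed a last exon more than once. Unknown read depth limits every comparison, since a shallower library may list fewer or shorter ends.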
